A study of Rattus norvegicus with 21 samples.

Results

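Later hippocampal slices were compared with the first slice of the same rat. The arrays of the 4 rats with more than 1 slice (P91, B9, B3 and B10) were taken, which gave 17 of the 21 arrays in the series. Of these, 9 arrays came from slices labelled S2 or S3 and 8 from slices labelled S1. The later slices were S3 of P91, S2 and S3 of B9, S2 of B3 and S2 of B10, and each of the 4 rats had 1 first slice. All were Wistar rats made epileptic with injected pilocarpine, and no untreated rat enters the comparison. Within each slice, recordings had marked an area of the dentate gyrus that generated fast ripples (FR) and an area that did not (nonFR), and total RNA of each area was put on its own Illumina beadchip array. The later arrays held 4 FR and 5 nonFR areas, since S2 of B9 gave a nonFR area only, and the first arrays held 4 FR and 4 nonFR areas. The slice number is a label: it need not follow the position of the slice along the hippocampus or the order of cutting or recording, and neither is given. The labels name no age, sex or chip.

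The dentate gyrus is the entry gate of the hippocampus. Its granule cells send mossy fibres to mossy cells and CA3 pyramidal cells, and interneurons hold their firing in check. In the epileptic hippocampus granule cells disperse and sprout, glia become reactive, and small clusters of neurons fire in the brief, very fast bursts that are recorded as fast ripples. Slices of a hippocampus differ in the cells and layers they cut through.

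The granule cell marker C1ql2 was detected on all 9 later and 8 first arrays, but was low on some first arrays. C1ql2, a synaptic protein of granule cells, had levels of 8.32, 10.01 and 11.16 (lowest, median and highest, log2 signal) on the 9 later arrays, against 6.67, 9.76 and 10.32 on the 8 first arrays. In S1 of P91 C1ql2 stood at 6.67 (FR) and 9.99 (nonFR), and in S1 of B10 at 6.68 (FR) and 7.79 (nonFR). Every array outside S1 of B10 and the FR area of S1 of P91 was at 8.32 or above. The mean level of the tested granule cell genes was also lowest on those low arrays, at 6.49 or below, against 7.08 or above on the others. Prox1, the transcription factor that defines granule cells, was read near background by its probe, at 5.78 to 6.13 in later and 5.81 to 5.91 in first slices, and was detected on 7 later and 5 first arrays. The probe of Mbp, the main myelin protein, was as dim, at 5.88 to 6.19 in later and 5.80 to 6.20 in first slices, so myelin is followed here through other genes. Total RNA of a tissue area does not tell fewer cells of a type from less RNA per cell. The arrays differed in brightness: the mean signal per array ran from 84.2 to 369.8 in later slices and from 103.2 to 310.9 in first slices, and the number of detected probes from 5648 to 9525 in later and from 6753 to 9477 in first slices. The difference in neither measure passed an exact permutation test within rats (two-sided p = 0.5 for mean signal and p = 0.25 for detected probes, where the smallest p possible is 0.0417). The dimmest array was the nonFR area of S2 of B10. The areas of a slice share the slice, so p-values measure the spread between these arrays of 4 rats.

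No gene passed the test between later and first slices. Of 8267 features tested, 0 passed an adjusted p of 0.05 (0%; limma with rat as a block and slice as a random block), and the smallest adjusted p was 0.855. At an unadjusted p of 0.05, 463 features (5.6%) passed, 228 of them higher in later slices (2.76%) and 235 lower (2.84%). Without the dimmest array 287 of the 8267 features passed at that unadjusted p, and the smallest adjusted p of the same limma fit was 0.999. The median size of a fitted difference was 0.091 on the log2 scale, with 16 features beyond 1 in size. The 95% interval stayed within a change of 1 on that scale (a factor of 2), in either direction, for 7551 features (91.3%). The differences within each rat had the same sign in all 4 rats for 989 features (12%), 513 of them higher in later slices (6.21%) and 476 lower (5.76%).

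The 24 named genes with the lowest p, 12 in each direction, are given as values, since none passed. Of these, 23 had the same sign in all 4 rats, a property that a low p favours. Among the higher ones, Tor1aip1, an inner nuclear membrane protein that binds lamins, had levels of 7.04, 7.87 and 8.36 (lowest, median, highest) in later slices, against 6.95, 7.16 and 7.89 in first slices. Its fitted difference was 0.60 ± 0.13 (SE; limma adjusted p = 0.855), and the values of the groups overlapped. Inpp5a, an enzyme that ends the calcium signal of inositol trisphosphate, had 10.79, 11.29 and 11.58 in later slices against 10.42, 10.79 and 11.29 in first slices, a difference of 0.37 ± 0.08. Penk, which encodes the opioid precursor proenkephalin, had 6.41, 8.26 and 10.91 in later slices against 5.98, 6.87 and 10.30 in first slices. Its difference was the largest of the 24, at 1.06 ± 0.31, and by rat it was 0.97 in P91, 0.51 in B9, 0.75 in B3 and 2.06 in B10. Every array of B9 was at 9.66 or above for Penk, and every array of the other rats at 9.20 or below.

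The other genes on the higher side were Abraxas2 (difference 0.53), a scaffold of a deubiquitinating complex, Arih1 (0.44), a ubiquitin ligase, Pdcl3 (0.44), a helper of protein folding, and Mios (0.43), a part of the GATOR2 complex that lets amino acids activate the growth kinase mTORC1. Polr1c (0.30), a subunit of RNA polymerases I and III, was the exception in sign, at -0.03 in B3. Pabpc4 (0.29), Runx1 (0.23), Gsap (0.16) and Csnk1g3 (0.15) completed the set. They encode a poly(A) binding protein, a transcription factor, an activator of gamma-secretase and a casein kinase.

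On the lower side stood genes of lysosomes, mitochondria and the endoplasmic reticulum. Grn, which encodes the lysosomal and secreted protein progranulin, had 6.30, 6.89 and 7.76 in later slices against 6.60, 7.37 and 9.23 in first slices, a difference of -0.72 ± 0.17. Ctsb, a lysosomal protease, had 9.41, 9.96 and 10.81 in later slices against 10.10, 10.63 and 11.47 in first slices, a difference of -0.66 ± 0.15. For both genes the smallest difference was in B3, at -0.25 for Grn and -0.13 for Ctsb. In B10 the difference lay in the nonFR area, whose later array is the dimmest. Grn stood there at 6.30 in S2 against 7.30 in S1, and Ctsb at 9.62 against 11.10. In the FR area of B10 Grn stood at 6.89 against 6.94, and Ctsb at 10.81 against 10.83. Iscu, the scaffold on which mitochondria build iron-sulfur clusters, had 8.42, 8.92 and 9.35 in later slices against 9.02, 9.42 and 10.07 in first slices. Its difference was -0.60 ± 0.13, and by rat it lay between -0.88 in B10 and -0.46 in B3. Sirt5, a mitochondrial deacylase, differed by -0.52, from -1.18 in B10 to -0.12 in B3. Nprl2, a part of the GATOR1 complex that opposes GATOR2, differed by -0.57.

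Prmt2 (-0.71), an arginine methyltransferase, Ddost (-0.54), a subunit of the enzyme that attaches sugar chains to proteins, and Fcgrt (-0.54), the neonatal Fc receptor, were also lower. So were the interferon-induced Ifi27 (-0.47), the DNA-binding protein gene Nabp2 (-0.44), the endoplasmic reticulum gene Tmem147 (-0.42) and Yaf2 (-0.22), a polycomb partner. None of the 24 genes had groups that did not overlap, and neither had any of the 8267 features (0%). The grouping of the lower genes by cell compartment was made after their values were seen and was not tested.

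**Figure D1:**
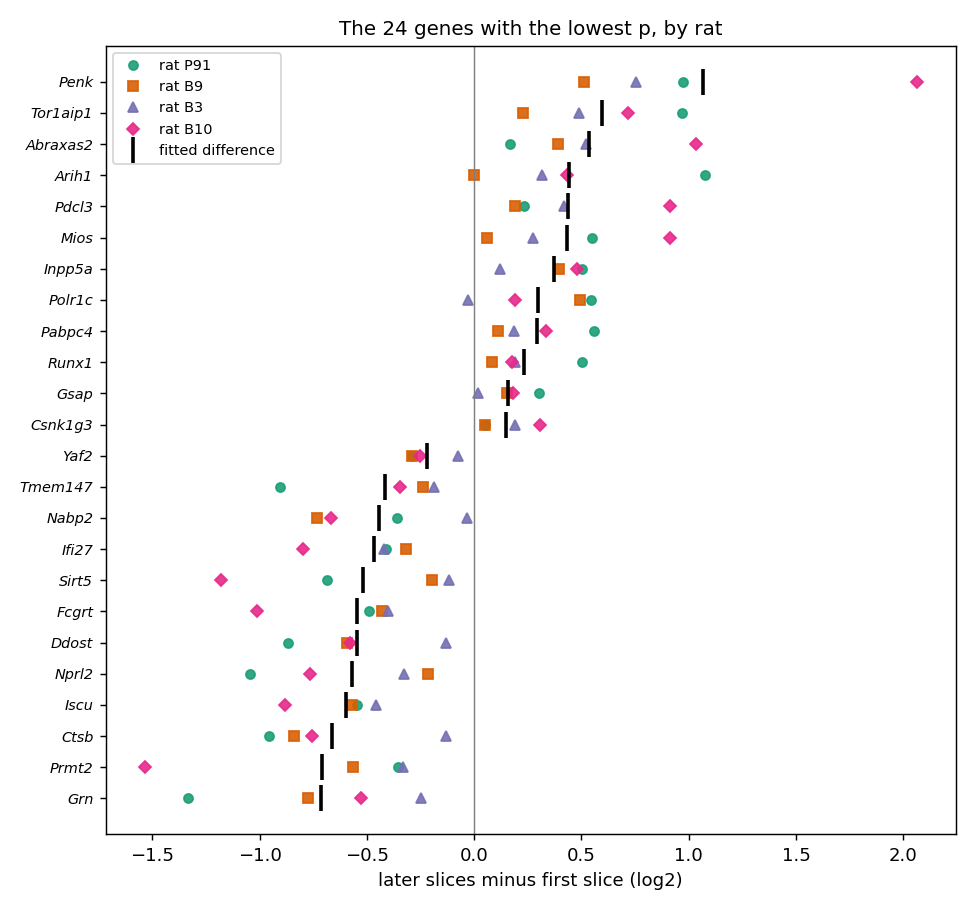
Difference of later from first slices (log2, x axis) for the 24 genes with the lowest p, with a coloured point for each of the 4 rats and a black bar for the fitted difference. In 23 genes the points of all 4 rats lie on the same side of 0, while their spread is wide: those of Penk run from 0.51 in B9 to 2.06 in B10.

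Genes of oxidative phosphorylation, the mitochondrial chain that makes ATP, lay slightly lower in later slices. Of 74 genes in the list 51 were tested, 45 had a fitted difference below 0 and 6 above, while over all features 50.1% lay above 0. The median difference was -0.15 on the log2 scale, against 0.0001 over all features. By rat the list's median was -0.21 in P91, -0.15 in B9, -0.11 in B3 and -0.14 in B10. An unadjusted p below 0.05 was reached by 5 of the 51 members, all lower (2.84% of all features were lower at that p), and none passed after adjustment. These 5, chosen by that p, were the complex I subunits Ndufa8 (-0.41 ± 0.15), Ndufb8 (-0.44 ± 0.16), Ndufb2 (-0.64 ± 0.29) and Ndufb11 (-0.47 ± 0.21), and the complex II subunit Sdha (-0.30 ± 0.13).

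The shift was uneven over single arrays and slices. Of the 51 genes 5 were lower in all 4 rats, as were 5.76% of all features. The mean level of the 51 genes ran from 9.36 to 9.98 on later arrays and from 9.45 to 9.92 on first arrays. In B10 the areas of the later slice stood at 9.98 (FR) and 9.36 (nonFR, the dimmest array), with 9.91 (FR) and 9.83 (nonFR) in its first slice. The mean was thus lower in the later slice of B10 in the nonFR area only. In B9 the later slices went opposite ways, with a median difference from S1 of 0.11 in S2 and -0.27 in S3, and 31 of the 51 genes were higher in S2, where 49.3% of all features were. The list's genes were lower than S1 in 37 cases in S3 of P91, 31 in S3 of B9, 38 in S2 of B3 and 32 in S2 of B10. Over all features 50.8%, 51.1%, 47.7% and 50.5% were higher in those 4 slices.

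Other housekeeping lists were less even. Genes of ribosomal proteins had a median of -0.10, with 32 of 48 lower, but medians by rat of -0.40 in P91 and 0.28 in B10. The ribosomal median was 0.058 without P91 and -0.18 without B10, so its direction turned on 1 rat. In the glycolysis and hypoxia list 15 of 21 genes were lower, with a median of -0.18 that came mostly from B10 (-0.43), against 0.01, -0.07 and -0.03 in P91, B9 and B3. Pkm, Ldhb and Pfkm were the 3 members with an unadjusted p below 0.05, all lower (2.84% of all features were lower at that p). The probe of Pkm was dim, at 5.77 to 6.44 over the arrays. Ldhb, a subunit of lactate dehydrogenase, differed by -0.48. Heat shock and unfolded protein genes had a median of -0.07. The endoplasmic reticulum chaperones Pdia4 (-0.50) and Hsp90b1 (-0.63) were lower in all 4 rats, without passing. Hsp90b1 had 8.70, 9.54 and 10.53 in later slices against 9.97, 10.26 and 10.61 in first slices.

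**Figure D2:**
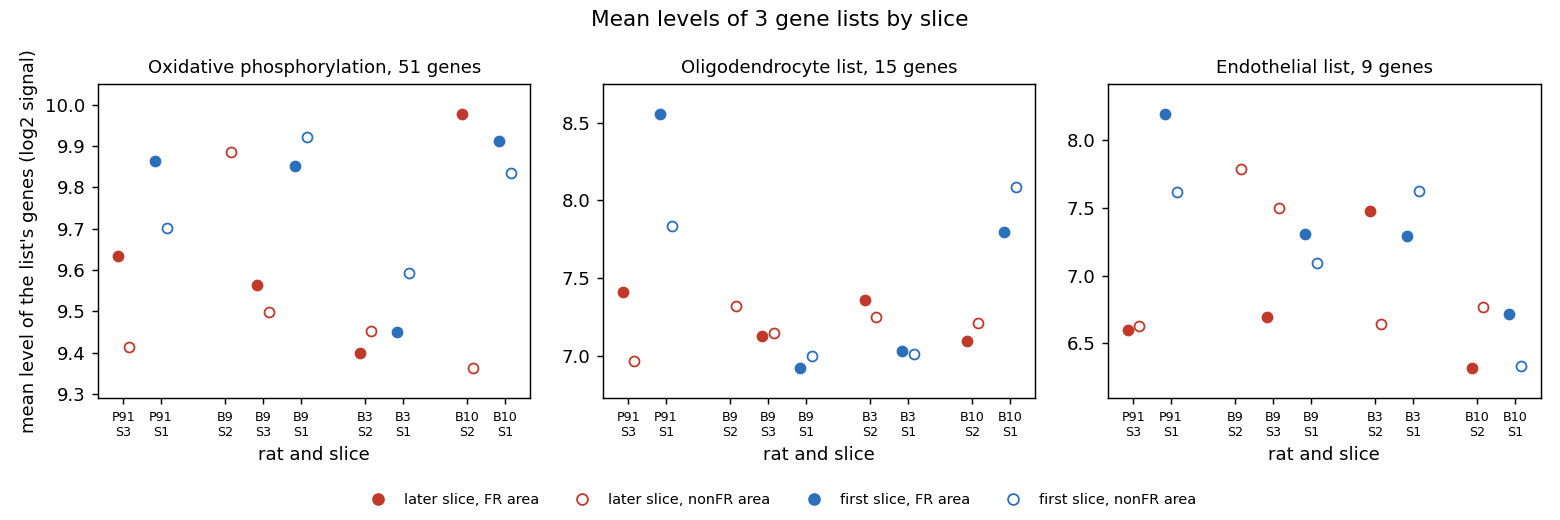
Mean level of the tested genes of 3 lists (log2 signal, y axis) on each array, grouped by rat and slice (x axis), with later slices in red left of the first slice in blue, FR areas filled and nonFR areas open. The oxidative phosphorylation means overlap between later (9.36 to 9.98) and first (9.45 to 9.92) arrays, and the oligodendrocyte and endothelial means are highest in the FR area of S1 of P91.

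Genes of inflammatory signalling lay higher in later slices of some rats. This list of cytokines, chemokines and their early targets had 20 of 27 members tested, 17 with a difference above 0, and a median of 0.57. The medians by rat were 1.02 in P91, 0.01 in B9, 0.05 in B3 and 0.98 in B10, so the shift lay in S3 of P91 and S2 of B10. Without the dimmest array, the nonFR area of S2 of B10, the median in that slice was 0.19 in place of 0.98. That fit sets the FR array alone against both areas of S1. The list's mean level in B10 was 8.03 (FR) and 8.68 (nonFR) in S2, against 7.13 and 7.90 in S1. An unadjusted p below 0.05 was reached by 3 of the 20 members, all higher (Ccl7, Timp1 and Ccl2; 2.76% of all features were higher at that p), and none passed after adjustment. Ccl7, a chemokine that draws monocytes, had 5.88, 6.83 and 8.44 in later slices against 5.81, 6.26 and 7.48 in first slices, a difference of 0.77 ± 0.24 with all 4 rats above 0. Timp1, a secreted inhibitor of matrix proteases that reactive astrocytes make, had 8.78, 10.11 and 11.78 in later slices against 7.35, 9.57 and 10.76 in first slices, a difference of 1.05 ± 0.36. It was -0.48 in B3 and 0.96 or more in the other rats.

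The single arrays show how uneven the inflammatory genes were. In S3 of P91 16 of the 20 genes were above S1, while Tlr2, a sensor of bacterial lipoproteins, differed by -1.13, Il1a by -0.55, Vcam1 by -0.31 and Il18 by -0.02. Cxcl2, Il1b, Lcn2 and Cxcl10 are shown as high ones, chosen after their values were seen. In P91 the chemokine gene Cxcl2 stood at 10.74 (FR) and 10.42 (nonFR) in S3, against 6.95 (FR) and 6.13 (nonFR) in S1. Its difference of 4.04 was the largest in the list and missed the threshold (adjusted p = 0.088). Il1b, which encodes interleukin 1 beta, stood at 11.39 and 10.60 in S3 of P91, against 9.31 and 8.16 in S1. Lcn2, an iron-trapping protein of inflamed tissue, stood at 8.77 and 9.45 there, against 6.14 and 6.78 (adjusted p = 0.061). Cxcl10, an interferon-induced chemokine, was high in both rats: 10.82 and 10.70 in S3 against 7.26 and 8.62 in S1 of P91, and 10.74 and 11.74 in S2 against 6.91 and 10.22 in S1 of B10. In B9 and B3 Cxcl10 differed by -0.51 and 0.28. The FR and nonFR areas of a first slice could differ as much as slices did, as 6.91 and 10.22 for Cxcl10 in B10 show.

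**Figure D3:**
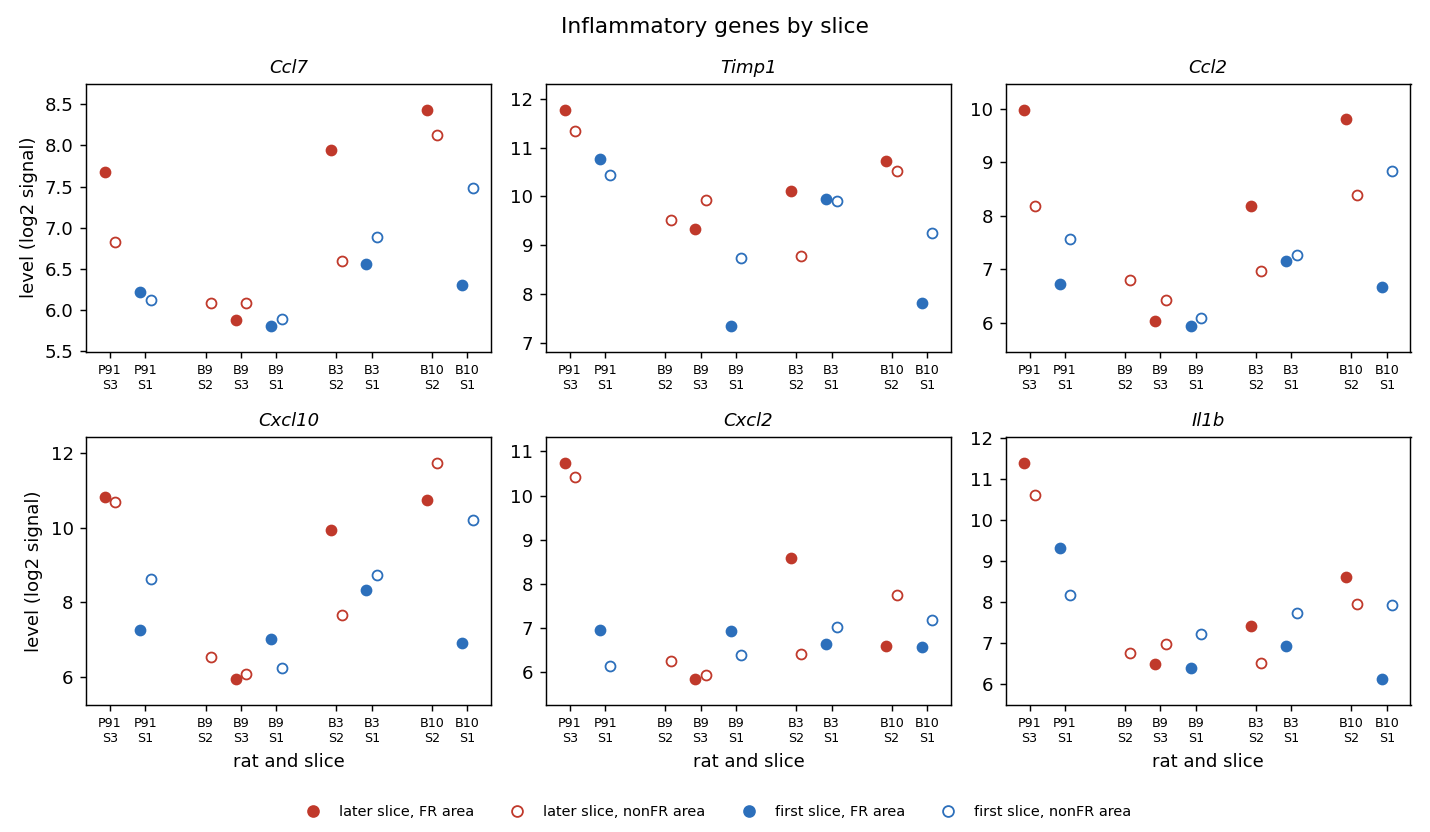
Level of 6 inflammatory genes (log2 signal, y axis) on each array by rat and slice (x axis), later slices in red left of the first slice in blue, FR areas filled and nonFR areas open. Cxcl2 is at 10.42 to 10.74 in S3 of P91 and at 6.95 or below in its S1, whereas in B9 no later array is above the highest first array for Cxcl2.

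Markers of oligodendrocytes lay below S1 in the same slices in which inflammatory genes lay above S1. The first slices of these rats stand apart here. The list's mean level was 8.55 (FR) and 7.84 (nonFR) in S1 of P91, and 7.80 and 8.09 in S1 of B10. It was 7.41 and 6.97 in S3 of P91 and 7.09 and 7.21 in S2 of B10, against 6.92 to 7.36 on the arrays of B9 and B3. Of 15 tested members of the oligodendrocyte list 14 had a fitted difference below 0, with a median of -0.25 (0.06 with array weights). All 15 were below S1 in S3 of P91 (median -0.99) and 14 in S2 of B10 (-0.97), whereas the medians were 0.39 and 0.04 in S2 and S3 of B9 and 0.29 in S2 of B3. Mog, a protein of the myelin surface and chosen after its values were seen, differed by -1.47 in P91 and -1.26 in B10, but by 1.19 in S2 of B9. Qdpr, an enzyme that recycles tetrahydrobiopterin and is rich in oligodendrocytes, was the member with the lowest p: 5.78, 5.99 and 6.95 in later slices against 6.07, 6.76 and 7.83 in first slices, a difference of -0.72 ± 0.20. Without P91 the list's median over later slices was -0.02. The part of cell makeup in the inflammatory values was not tested.

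Lists of other cell types differed between slices of single rats in the same way. In S3 of P91 all 9 endothelial genes were below S1, with Cldn5, the tight junction protein of brain vessels, at 6.91 (FR) and 7.32 (nonFR), against 10.96 and 9.88 in S1. The difference of -3.30 had an adjusted p of 0.11, and the list's median over all later slices was -0.43, or -0.06 without P91. Oligodendrocyte precursor genes had a median of -1.20 in the same slice, and complement genes, of innate immune defence, -0.86. C1qa, a complement gene made by microglia, was lower in all 4 rats, with a fitted difference of -0.57 ± 0.15 (unadjusted p = 0.00277). Microglia and macrophage genes as a list had medians between -0.28 in S3 of P91 and 0.60 in S2 of B9. Astrocyte genes had a median of -0.16, and Gfap, the filament protein of reactive astrocytes, differed by -0.06 (95% interval -0.62 to 0.51).

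Neuronal genes were most uneven in B10. In the interneuron list 13 of 14 tested genes had a fitted difference below 0, with a median of -0.25, and of -0.09 without B10. Their median was -0.50 in S2 of B10 and between -0.13 and -0.02 in the other later slices. The peptide genes Cck and Sst, also picked for their values, differed by -2.39 and -1.78 in S2 of B10 (adjusted p = 0.72 and 0.49). Gad1, which makes GABA, differed by -0.26 (95% interval -1.17 to 0.66), and Npy, an inhibitory peptide of interneurons and of stressed granule cells, by -0.38 (-0.92 to 0.15). Granule cell genes had a median of 0.10 over 6 tested, with 5 above 0. By rat their median was 0.31 in B10, against 0.02 in P91, 0.04 in B9 and -0.02 in B3. Calb1, a calcium buffer of mature granule cells, stood at 9.32 (FR) and 12.22 (nonFR) in S2 of B10, against 7.34 and 7.35 in S1. Both areas of S1 of B10 lay below the arrays of the other rats, which were at 8.85 to 11.61. In the other rats Calb1 differed by at most 0.14 as a mean over areas, so its fitted difference of 0.79 (95% interval -0.40 to 1.97) rested on B10. The areas of P91 and B9 went opposite ways. In P91 Calb1 stood at 10.22 (FR) and 8.85 (nonFR) in S3, against 8.96 and 10.10 in S1. In B9 it stood at 10.30 (FR) and 9.36 (nonFR) in S3 and 9.80 (nonFR) in S2, against 9.23 and 10.36 in S1.

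Activity-regulated genes showed no shared direction. The immediate early list had 9 of 23 genes above 0 and a median of -0.06, with 0.34 in P91 and -0.19 in B10. Fos, a standard mark of recent firing, differed by 0.02 (95% interval -0.79 to 0.84), at -0.46 in P91, 0.97 in B9, -0.23 in B3 and -0.41 in B10. Bdnf, a growth factor that activity induces, differed by 0.68 (-0.20 to 1.55). Its receptor gene Ntrk2 was higher in all 4 rats, with 6.57, 7.51 and 7.99 in later slices against 6.11, 6.95 and 7.45 in first slices (0.58 ± 0.18), without passing. Among ion channel genes, Kcnk1, a potassium leak channel, differed by 0.81 ± 0.29 and Kcnmb4, a subunit of calcium-gated potassium channels, by -0.47 ± 0.14, while the potassium channel list had a median of 0.02. Without B10 Kcnk1 differed by 0.42 and Kcnmb4 by -0.26. Glutamate receptor, GABA-A receptor and synaptic vesicle genes had medians of 0.08, 0.03 and -0.11.

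Genes of position along the hippocampus could say little about where the slices were cut. Of 9 genes in the dorsal list only Ccn3 was tested (difference -0.15), and of 12 in the ventral list 5 were tested, with a median of 0.01 and medians between -0.05 and 0.06 in the 4 rats. Markers of neighbouring tissue were mostly undetected. Of 11 genes in the thalamus list 4 were tested (median -0.06), of 16 choroid plexus and ependyma genes 3, of 16 lymphocyte genes 1 and of 11 red blood cell genes 1.

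**Figure D4:**
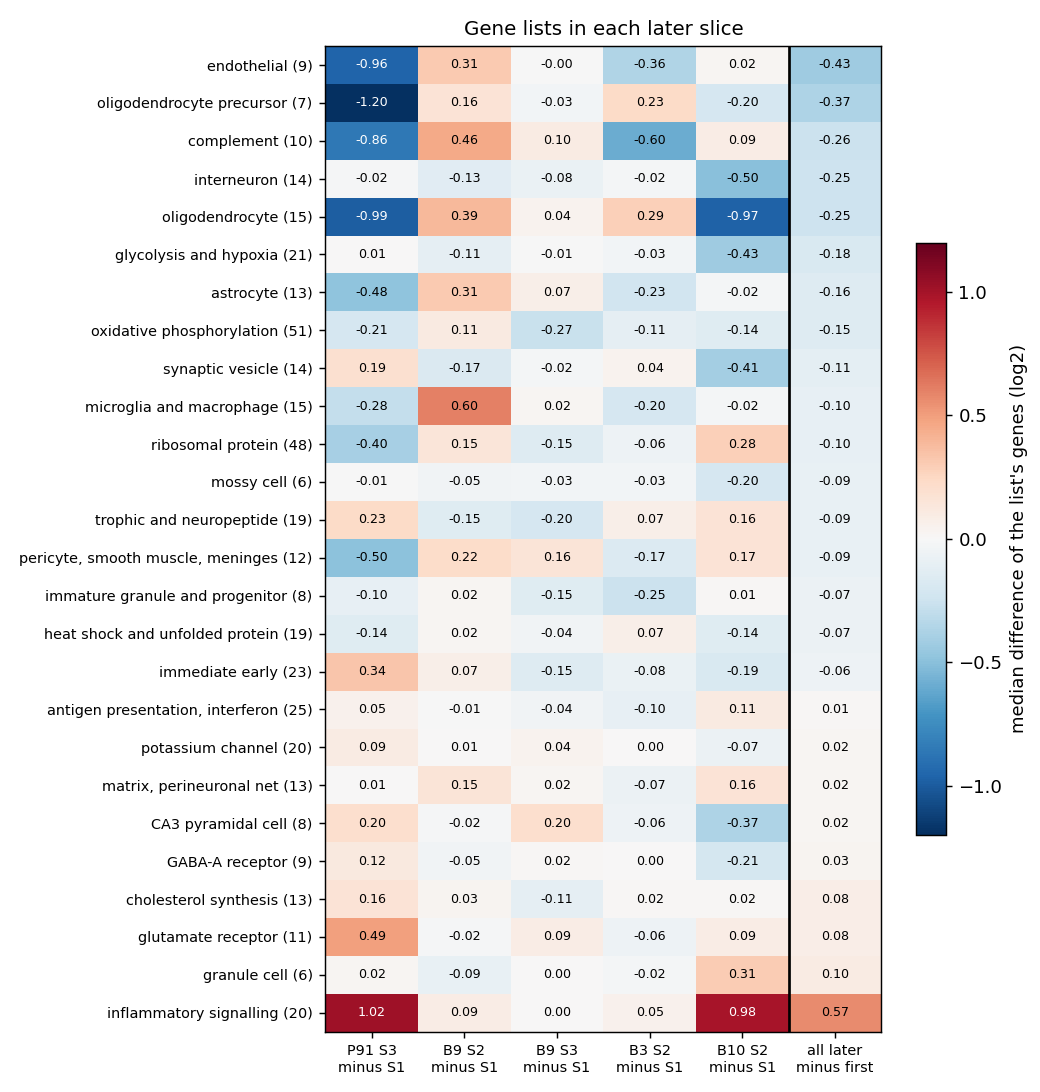
Median difference (log2, colour and number) of the tested genes of each list with 6 or more of them, for each later slice against S1 of its own rat, with the fitted difference of all later from first slices at the right. Inflammatory signalling stands at 1.02 in S3 of P91 and 0.98 in S2 of B10 (0.19 without the dimmest array, which leaves only the FR array of that slice). The oligodendrocyte list stands at -0.99 and -0.97 there, and both lists lie above 0 and at 0.39 or below in the other slices.

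The difference of later from first slices was also compared between FR and nonFR areas. No feature passed (0 of 8267, 0%; limma, interaction of slice and area; smallest adjusted p 0.842), and 390 (4.72%) had an unadjusted p below 0.05. The named genes with the lowest p were Egr1, an immediate early transcription factor, Lmna, which encodes lamins of the nuclear envelope, and Hnrnpl, an RNA-binding protein. Egr1 differed between later and first slices by -0.78 in FR and 0.40 in nonFR areas, and the difference between the areas was -1.16 ± 0.23. Lmna differed by -0.25 in FR and 0.34 in nonFR areas, and Hnrnpl by -0.16 and 0.65.

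A further fit asked whether the slices of a rat differed more than the areas within slices, whatever their number. It compares these 9 slices and not conditions. Of 8267 features 10 (0.121%) passed an F test over the 5 later slices, each against S1 of its own rat (limma, adjusted p below 0.05), and 773 (9.35%) had an unadjusted p below 0.05. The 6 with a gene name were Gpc3, Aebp1, Degs2, Pygl, Rras2 and Rcsd1, the last of them outside the naming rule. Taken slice by slice, 7 features rose (0.0847%) and 12 fell (0.145%) in S3 of P91, and 26 rose (0.315%) and 44 fell (0.532%) in S2 of B10. In B9, 0 rose and 2 fell (0.0242%) in S3. S2 of B9 is 1 array, whose own spread cannot be seen, and there 0 rose and 1 fell (0.0121%) with the error taken from the areas of the other slices. In S2 of B3 none passed (0%), and 54 features had an unadjusted p below 0.05, against 648 in S3 of P91 and 1231 in S2 of B10. The median size of a difference was lowest there too, at 0.098, against 0.175 in S3 of P91, 0.135 and 0.171 in S2 and S3 of B9, and 0.231 in S2 of B10. The counts depend on how areas of other rats vary, since they set the error: without B3, 0 features passed in S3 of P91 and 0 in S2 of B10 (456 and 961 at an unadjusted p below 0.05), and without B10 0 passed in S3 of P91 (868). Genes named in the next paragraphs for a single slice, other than the first 5 above, were chosen after their values were seen.

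S2 of B10 had the most calls as reported, 70 against 19 in S3 of P91. With array weights it had 6 and S3 of P91 13, and with median centring 7 and 8. Gpc3, a cell-surface proteoglycan that modulates growth factor signals, rose to 10.12 (FR) and 9.23 (nonFR), against 6.14 and 6.42 in S1 (difference 3.40, limma adjusted p = 0.00648). Pygl, a glycogen phosphorylase, rose to 7.51 and 7.53, against 6.20 and 6.06, and Rras2, a Ras-like GTPase, to 7.17 and 7.47, against 6.12 and 6.02. Pdyn, which encodes the dynorphin precursor stored in mossy fibres of granule cells, rose to 8.47 and 8.13, against 5.76 and 5.77 in S1 (2.54, adjusted p = 0.043). Neurod6, a transcription factor of pyramidal neurons, fell to 5.80 and 5.79, against 9.15 and 8.04 in S1 (-2.80, adjusted p = 0.036). The arrays of the other 3 rats were at 5.72 to 6.96 for Neurod6, so that S1 of B10 is the slice that stands apart. In all 5 genes both areas of the later slice lay on the same side of both areas of the first slice, a property that passing this test favours.

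Among the other changes in S2 of B10, Rgs10, an inhibitor of G-protein signals, rose to 11.38 and 10.55, against 7.19 and 7.86 in S1. Here too S1 stands apart, with 10.16 to 11.55 on the arrays of the other rats. The class I histocompatibility gene RT1-S3 rose by 2.29 and the Fc receptor gene Fcgr3a by 1.38. Gpx4, which protects membranes from lipid peroxides, fell to 9.03 and 8.31, against 11.27 and 11.36 in S1. Prkcb, a protein kinase C of neurons, fell by 2.33 against 11.15 and 11.12 in S1 (8.43 to 9.90 in the other rats), and Ap2m1, a clathrin adaptor subunit, fell to 8.62 and 9.17, against 11.38 and 10.97. Sirt5, one of the 24 genes above, fell by 1.18 in this slice. Of the 70 features that passed 42 had a gene name, 19 higher and 23 lower. CA3 pyramidal cell genes as a list had a median of -0.37 in this slice and granule cell genes of 0.31. Both arrays of S2 of B10 were dim, with mean signals of 101.3 and 84.2, against 126.9 and 103.2 in S1. With brightness as a covariate 9 features passed in place of 70. Without the dimmest array only the FR array of this slice is left, whose own spread cannot be seen, so no count is given.

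In S3 of P91 the named genes were 5 that rose and 11 that fell. Aebp1, which encodes a protein of extracellular matrix, fell to 6.58 in both areas, against 7.53 (FR) and 7.79 (nonFR) in S1 (-1.08, limma adjusted p = 0.00943). Degs2, an enzyme of sphingolipid synthesis, fell to 5.83 and 5.84, against 7.22 and 6.93 in S1, and was at 5.73 to 6.29 in the other rats. Cspg4, the NG2 proteoglycan of oligodendrocyte precursors and pericytes, fell to 6.82 and 7.03, against 9.37 and 8.79 (-2.16). The other rats were at 5.72 to 5.99 for Aebp1 and at 5.92 to 8.06 for Cspg4. S1 of P91 lay above both ranges, while S3 lay above that of Aebp1 and within that of Cspg4. Ncf1, a subunit of the oxidase of phagocytes, fell by 1.03. Procr, the endothelial protein C receptor, rose to 9.92 and 8.57, against 6.19 and 6.68 (2.81, adjusted p = 0.049). Plet1 rose by 2.59, Plekhf1 by 1.66 and Il1r2, the decoy receptor of interleukin 1, by 1.56. Arih1, one of the 24 genes above, rose by 1.08. The brightness of these arrays was close, at 243.9 and 257.0 in S3 against 235.4 and 280.6 in S1.

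The single genes that passed in B9 were Plac9 and Rps9 in S3, and Hba-a1 in S2, which is 1 array. Hba-a1, an alpha globin of red blood cells, stood at 5.88 in S2, near background, against 8.49 (FR) and 9.45 (nonFR) in S1, while S3 of the same rat stood at 8.74 and 9.56. In the other rats it was at 6.54 or below on every array. Rps9, a ribosomal protein gene, fell to 9.24 and 8.88 in S3 of B9, against 10.75 and 10.60 in S1.

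**Figure D5:**
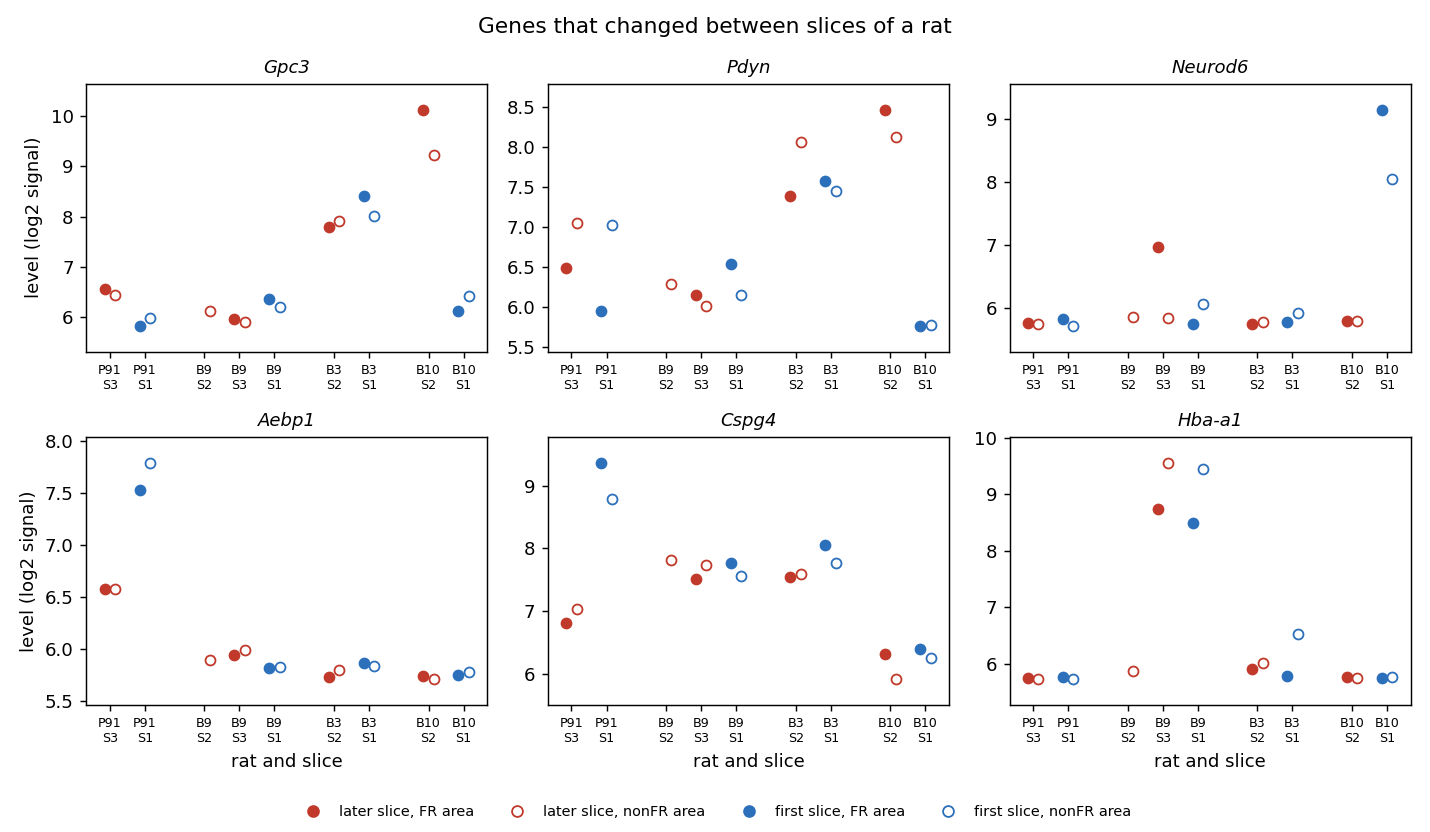
Level of 6 genes that differed between 1 later slice and S1 of its rat (log2 signal, y axis) on each array by rat and slice (x axis), later slices in red left of the first slice in blue, FR areas filled and nonFR areas open. Gpc3 and Pdyn are high in S2 of B10 against its S1. Neurod6 is lower there than in S1 of B10, the slice that stands apart from the other rats. Aebp1 and Cspg4 are lower in S3 of P91 than in its S1, which lies above every array of the other rats. Hba-a1 is at 5.88 in S2 of B9 but at 8.49 or above in its S1 and S3.

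The slice differences of the 4 rats had little in common. Between pairs of rats, which share no arrays, the correlation of the differences over 8267 features ran from -0.35 (B9 with B3) to 0.22 (B3 with B10). This is a description across genes, which are not independent and were normalized together. More than 1 on the log2 scale separated later from first slices for 472 features in P91, 300 in B9, 18 in B3 and 755 in B10.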

How the data were processed

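Per the file headers, the deposited table gives for each probe an average signal (a linear intensity, not normalized) and a detection p-value for each array. A second deposited table holds values that the authors processed, with the range of log2 signals, for which the submitters' processing notes name lumi 2.2. Its exact transformation is not given in the sources used here, and it served as an alternative. No sample column was left unused (0). Of 22523 probes, 720 were 0 throughout and were dropped. The platform annotation gave 13793 probes 1 gene symbol, 0 several and 8730 none.

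Signals of all 21 arrays were background-corrected with negative-control values inferred from the detection p (neqc, offset 16), quantile-normalized and log2-transformed in limma 3.58.1 (R 4.3.3). The offset compresses differences of dim probes. Kept were the 8279 probes detected (p under 0.01) on 8 or more of the 17 arrays, and the brightest probe stood for a symbol, which left 8267 features, 6394 of them with a symbol. The number of arrays limits the precision.

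Later and first slices were compared with limma (lmFit, eBayes, two-sided, Benjamini-Hochberg over all features), with rat as a fixed block taken from the animal names in the labels, FR or nonFR area as a covariate and slice as a random block (estimated correlation -0.01). The interaction of slice and area, and an F test over slices with areas as the error, used the same 17 arrays, and slice-by-slice p-values were adjusted jointly over the 5 slices. The fits were tested on simulated data in which arrays varied independently within a rat, so an effect shared by the areas of a slice was not covered. The comparison called 82 of 100 changes of 1 on the log2 scale and 97 of 100 changes of 2, with 12 false calls. For changes in 1 slice the F test called 20 of 100 and 52 of 100, with 4 false calls. Named genes were up to 12 in each direction with the lowest p, up to 2 of each of 33 gene lists, up to 5 from the F test, up to 3 from the interaction, and Prox1, Calb1, Gfap, Gad1, Aif1, Mbp, Fos, Bdnf and Npy. Other genes in the text were chosen after their values were seen. The comparison and the lists were chosen with earlier results of these data known. Alternatives changed the background correction, normalization, probe filter, blocks, covariates, weights, and the arrays or slices used. No slice position, chip or batch is named in the labels.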

Additional observations from a re-analysis of the deposited data

Results flagged for a closer look

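Among 298 groups of values examined, each of 4 rats or of 8 or 9 arrays, 25 held a highest or lowest value set far from the rest. For independent values chance gives about 1 in 20, which is 14.9. The arrays share rats and slices, and many of the genes were chosen by low p or for their values, so that rate is only a rough guide. Within rats, the later minus first difference in P91 stood apart for Cspg4 (-2.16, next -0.35), Npy (-1.16, next -0.22), Ccn3 (-0.64, next -0.04) and Ntrk2 (1.11, next 0.51). In B10 it stood apart for Calb1 (3.42, next 0.14), Nmb (1.18, next 0.20) and Fcgrt (-1.01, next -0.49), and for the medians of the mossy cell (-0.20, next -0.04), interneuron (-0.50, next -0.07) and glycolysis and hypoxia lists (-0.43, next -0.07). In B9 the difference of Fos (0.97, next -0.23) stood apart, and in B3 that of Pdia4 (-0.27, next -0.58).

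Single later arrays stood apart in level (log2 signal). The FR area of S3 of P91 was highest for Qdpr (6.95) and Ldhb (12.44), and its nonFR area for Calb2 (5.98). The FR area of S2 of B10 was highest for Nmb (7.79), Neurod1 (6.33) and Cyp51 (6.12), and the nonFR area of S2 of B3 for Prox1 (6.13). Among first arrays, S1 of P91 was highest for Ccn3 in its FR area (7.04) and lowest for Gad1 in its nonFR area (8.97). The FR area of S1 of B10 was highest for Lum (9.49), a matrix proteoglycan of meninges, against 6.82 on the next array, and lowest for Gfap (9.32). Klf2 was highest in the FR area of S1 of B9 (6.34) and Gabrb2 in that of S1 of B3 (6.01). The slice effect did not pass in its comparison between FR and nonFR areas (0 of 8267 features, 390 at an unadjusted p below 0.05, limma).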

How the results depend on the processing

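The comparison of later with first slices, and its interaction with area, called 0 features under every alternative run, among them the fits with no replicate block (rat left out; 96 features with an unadjusted p below 0.05), with no slice block (454), on slice means (287), and without each rat or each slice of B9 (0 to 0). With the same 8267 features, the number at an unadjusted p below 0.05 ran from 96 to 942 (S2 against S1 only; 863 without B9, 732 without S3 of B9) for the comparison, and from 201 (without B10) to 1513 (median centring; 844 without B3) for the interaction. The slice-by-slice calls were less stable. The F test called 10 features as reported, 0 with no background correction, 1 with median centring, 0 with the authors' processed values, 0 with probes detected on all 17 arrays, 5 with array weights, 0 with brightness as a covariate, 4 without the dimmest array, and 0 to 20 on leaving out a rat or a slice (0 without P91, B3, B10 or S3 of B9, 1 without B9, 20 without S2 of B9). In S3 of P91 the 19 calls became 1, 8, 3, 0 and 4 under the alternatives of background, centring, authors' values, detection on all arrays and brightness, 12 with no detection filter, and 0 to 24 on leaving out (8 without B9). In S2 of B10 the 70 calls became 10, 7, 16, 12 and 9 under those 5 alternatives, 6 with array weights (13 in S3 of P91), and 0 to 79 on leaving out (16 without P91, 31 without B9, 45 without S3 of B9). The cause was not tested beyond the fewer probes or arrays that some of these use. The slice differences of Gpc3, Pygl, Rras2, Aebp1 and Degs2 kept their sign, and 21 of their values no longer passed. Leaving out another rat or a slice of B9 cannot move these differences, only their error.

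Of 26 lists with 6 or more tested genes, 19 had a median over later slices that turned sign under some alternative, 9 of them on leaving out a rat or slice. The 7 that kept it were oxidative phosphorylation, glycolysis and hypoxia, inflammatory signalling, interneuron, endothelial, granule cell and mossy cell. On leaving out, the immediate early median ran from -0.15 to 0.050, trophic and neuropeptide from -0.092 to 0.13, synaptic vesicle from -0.16 to 0.040, and pericyte from -0.15 to 0.087. Ribosomal genes were at 0.18 for S2 only and -0.29 for S3 only. Oxidative phosphorylation lay between -0.29 (S3 against S1 only) and -0.08 (S2 against S1 only). The oligodendrocyte median was 0.06 with array weights, and the endothelial median -0.02. The inflammatory median in S2 of B10 was 0.19 without the dimmest array (only the FR array of that slice left), 0.41 with median centring and 0.30 with no detection filter. Without P91 the inflammatory median over later slices was 0.28.

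Signs turned for 14 genes, none called. Gfap was 0.10 with rat left out, 0.29 in FR arrays and 0.039 without the dimmest array. Fos was -0.70 in nonFR arrays, -0.087 with no background correction, -0.015 with the authors' values and -0.11 for S2 only. Mbp was -0.10 with median centring, -0.0048 with brightness, -0.023 without the dimmest array and -0.12 for S3 only. Prox1 was -0.015 in FR arrays and -0.0079 for S3 only, and Hba-a1 was 0.10 and 0.088. Array weights gave 0.0038 for Aif1 and 0.063 for Tspan2, and S2 only gave 0.22 for Aif1. In nonFR arrays Camk2b was -0.31, Cpne4 -0.067 and Gad1 0.30. For S3 only, Tgfb2 was -0.063, Bok 0.30 and Syp 0.17. On leaving out a rat or slice of B9 the lowest and highest values were -0.39 and 0.090 for Aif1, -0.37 and 0.17 for Fos, -0.00099 and 0.065 for Prox1, -0.15 and 0.037 for Gfap, -0.035 and 0.092 for Mbp, -0.018 and 1.12 for Calb1, -1.01 and 0.10 for Bok, and -0.96 and 0.12 for Syp.

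The 4 rats and 5 later slices limit the precision, and probes near background give compressed folds.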

Other observations

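Rps9 was near background on all 4 arrays of P91, at 5.98 and 6.10 in S3 against 6.01 and 5.95 in S1, whereas the arrays of the other rats stood between 8.88 and 10.75. Gene names and probes are those of the platform annotation, and no other reading of Rps9 was used here.

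Alpha globin signal was seen in S1 and S3 of B9 and not in S2, as the values of Hba-a1 show. The beta globin gene Hbb was detected on 6 arrays and Hba-a2 on 4, below the number of arrays needed for a test.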
